A study of Mus musculus with 9 samples.

Results

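Genes of major histocompatibility complex (MHC) class I antigen presentation were examined in RAW264.7 cells, a mouse macrophage line that forms osteoclast-like cells when stimulated with receptor activator of nuclear factor-kappaB ligand (RANKL). The 10 genes were taken by their symbols in the deposited table, namely the heavy chains H2-K1, H2-D1 and H2-T23, the light chain B2m, the peptide transporter subunits Tap1 and Tap2, the loading factor Tapbp, and the immunoproteasome subunits Psmb8, Psmb9 and Psmb10. They are 10 of the 56691 genes in the table, and all 10 were among the 11995 genes that entered the test. RNA was sequenced from 3 groups of 3 libraries each. Control cells received no RANKL, RANKL cells were stimulated with RANKL, and RANKL + UD cells received RANKL together with uridine (UD), a pyrimidine nucleoside that the study tested as an inhibitor of osteoclast formation. The labels give 3 days of culture, and the methods give 50 ng/mL RANKL and harvest after 72 h; the UD dose of these libraries is not given in the sources used here. All 9 libraries come from the same established line, so the replicates are repeat cultures or preparations of 1 line, the sources do not say which, and p-values measure only the spread between them.

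MHC class I molecules display short peptides from proteins made inside the cell to CD8+ T cells. Proteasomes cut the proteins, the TAP transporter carries the peptides into the endoplasmic reticulum (ER), tapasin holds the transporter next to empty heavy chain and beta-2-microglobulin pairs, and the loaded complex moves to the surface. Interferons raise most genes of this pathway in macrophages, and under their influence the immunoproteasome subunits replace the constitutive catalytic subunits of the core particle.

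In RANKL against control, 8 of the 10 genes were lower and 0 were higher by edgeR's quasi-likelihood test (Benjamini-Hochberg adjusted p under 0.05 over all tested genes), with falls from 1.44-fold for Tapbp to 2.14-fold for H2-K1. Among all tested genes 57.6% were called in this comparison, 27.3% as higher and 30.2% as lower. H2-T23 and Tap2 were not called. In RANKL + UD against RANKL, Psmb8 and Psmb10 were higher, H2-D1 and H2-T23 were lower, and the other 6 genes were not called, against 18.6% of all tested genes called higher, 20.2% lower and 38.8% in either direction. In RANKL + UD against control, 9 genes were lower, 0 were higher and Tap2 was not called, against 26.7% of all tested genes called higher, 27.3% lower and 54% in either direction. After TMM scaling (trimmed mean of M values), the RANKL libraries lay fully below control for 8 of the 10 genes (32.1% of all tested genes), the RANKL + UD libraries lay fully above RANKL for 3 (24.4%) and below it for 2 (24.9%), and the RANKL + UD libraries lay fully below control for 9 (30.4%). The median log2 fold change of the 10 genes was -0.68, 0.13 and -0.46 in the 3 comparisons, and that of all tested genes was -0.03, 0.00 and 0.00. Each group of libraries enters 2 of the 3 comparisons, so their values are given side by side and not as independent results. Psmb8 and Psmb10 are the genes called lower with RANKL and higher with UD added, as were 10.5% of all tested genes, and H2-D1 was called lower in both steps, as were 4.05%.

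**Figure D1:**
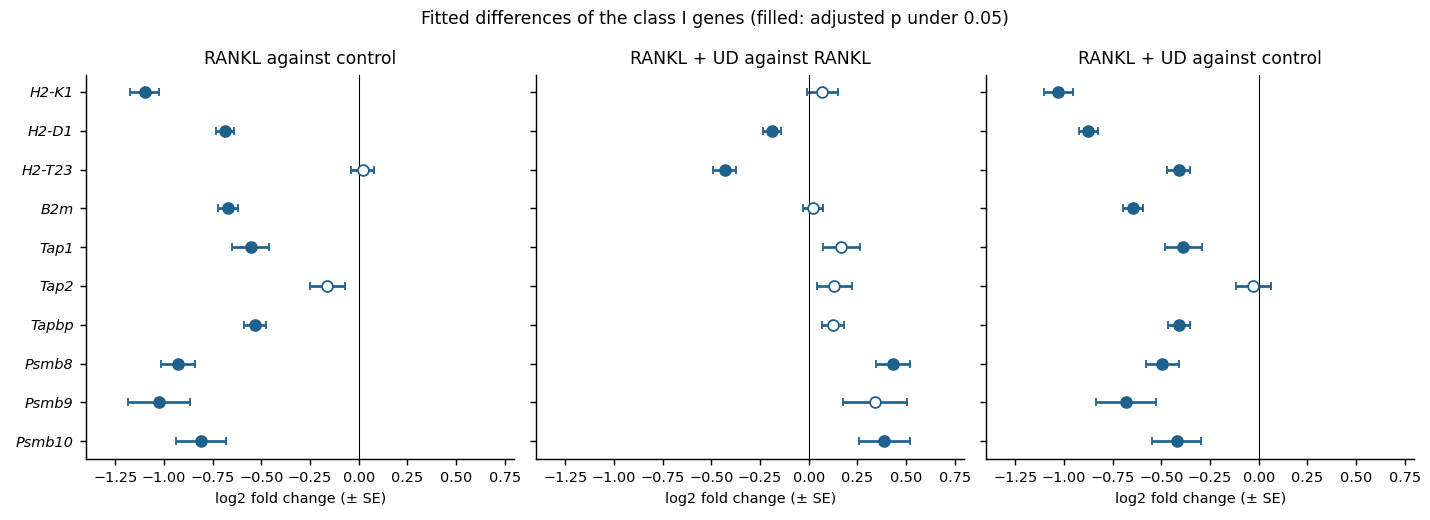
Log2 fold change (x axis, points) with its standard error (bars) of each of the 10 genes (y axis) in the 3 comparisons (panels), with called genes as filled points. With RANKL, 8 points are filled and lie left of 0. With UD added to RANKL, Psmb8 and Psmb10 are filled on the right and H2-D1 and H2-T23 on the left.

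The libraries held 15951800 to 19746862 counted reads. Replicates of a group differed by more than sampling noise in every pair. The TMM factors that set the scale of the test were lower for the RANKL libraries (0.959 to 0.962) than for the others (1.01 to 1.03), so that FPKM values, which scale a count by exonic length and the total count only, place RANKL slightly lower than the test does. Both scales are given where they differ. The macrophage markers summed to 9421 to 10013 FPKM in control, 2528 to 2772 in RANKL and 2205 to 2339 in RANKL + UD, with none of the 9 markers at or under 3 counts throughout a group, and of the 8 that were tested 7 were lower and 1 higher with RANKL. Most of these sums was Lyz2 (means of 8000, 1431 and 1285 FPKM), so they mainly follow this gene. The marker that was higher with RANKL was Cd68 (means of 549, 782 and 643 FPKM). The osteoclast markers summed to 57.5 to 60.2, 2714 to 2919 and 1723 to 1760 FPKM, and all 8 tested were higher with RANKL and lower with UD added to it. The 5 markers of dendritic cells, which also present antigen, summed to 14.3 to 14.9, 40.5 to 44.0 and 17.3 to 19.1 FPKM, with Flt3 and Cd209a at or under 3 counts in every library. Nearly all of that sum was Itgax, an integrin that is not limited to dendritic cells (means of 14.1, 40.9 and 16.8 FPKM). Markers of T cells, B cells, fibroblasts, epithelium and endothelium summed to at most 0.94 FPKM in any library. The macrophage and osteoclast markers differed between the same groups as the class I genes described here, not always in the same direction, and their part in those differences was not tested. In RNA from whole cultures, fewer cells of a type and less RNA per cell cannot be told apart.

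Of the 10 genes, 8 lie on chromosome 17, and B2m and Psmb10 lie on chromosomes 2 and 8. In the deposited coordinates H2-K1 is at chr17:34214991-34219321 (minus strand), H2-D1 at chr17:35481706-35486475 (plus strand), H2-T23 at chr17:36340665-36343747 (minus strand) and Tapbp at chr17:34134873-34148266 (plus strand). Psmb9 (chr17:34400961-34406738, minus strand), Tap1 (chr17:34406527-34416199, plus strand), Psmb8 (chr17:34416695-34420428, plus strand) and Tap2 (chr17:34422501-34435295, plus strand) form a tight row, in which Psmb9 and Tap1 overlap by 212 bases on opposite strands. B2m is at chr2:121978167-121983564 (plus strand) and Psmb10 at chr8:106662367-106665076 (minus strand). The submitters' processing notes name mm10, but none of the 10 genes has the coordinates of the GRCm38 annotation, so the build of these coordinates is not given in the sources used here. Tapbp overlaps Zbtb22 over 3422 bases of the same strand, and Zbtb22 reached at most 7.98 FPKM. The other overlapping genes stayed at or under 0.71 FPKM. The libraries are strand-specific per the labels, but whether counting used the strand is not given in the sources used here, so reads in the Psmb9 and Tap1 overlap may be assigned to either gene.

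The start regions are shown so that their letters can be compared, and a relation to the changes in expression was not tested. The letters are those of the reference genome, and those of the RAW264.7 cells may differ. Windows of 250 bases before the RefSeq start site (build GRCm38.p6) were matched by symbol for 9 of the 10 genes, all but Tap2. The windows of H2-D1, Tapbp, Psmb8 and Psmb9 lie inside the genes of the GRCm38 annotation. That of H2-T23 lies mostly inside its gene, and that of Psmb10 in smaller part. Match positions, and the lack of a match, therefore depend on the start site used. H2-K1 has a second window (chr17:34000334-34000583), which is not printed and holds 2 matches to CCAAT. Capitals mark matches, on either strand, to AANNGAAA (the core letters bound by interferon regulatory factors), the kappaB consensus (bound by NF-kappaB), TGACG (the core of a cyclic AMP response element) and CCAAT (bound by NF-Y). H2-K1 (chr17:34000348-34000597, minus strand), H2-D1 (chr17:35262844-35263093, plus strand), H2-T23 (chr17:36032702-36032951, minus strand), B2m (chr2:122147437-122147686, plus strand) and Tap1 (chr17:34187306-34187555, plus strand) read 5′ to 3′ in gene direction as follows.
H2-K1: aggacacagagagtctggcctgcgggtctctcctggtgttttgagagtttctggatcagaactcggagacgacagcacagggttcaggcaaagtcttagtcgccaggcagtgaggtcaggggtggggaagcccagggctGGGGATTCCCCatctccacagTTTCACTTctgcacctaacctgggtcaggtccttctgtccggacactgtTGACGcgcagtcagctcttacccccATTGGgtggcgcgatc
H2-D1: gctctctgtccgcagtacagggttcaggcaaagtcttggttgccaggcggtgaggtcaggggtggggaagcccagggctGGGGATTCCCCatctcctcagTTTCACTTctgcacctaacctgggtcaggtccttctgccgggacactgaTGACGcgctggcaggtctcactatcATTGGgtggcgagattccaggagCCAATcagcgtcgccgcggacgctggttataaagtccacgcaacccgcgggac
H2-T23: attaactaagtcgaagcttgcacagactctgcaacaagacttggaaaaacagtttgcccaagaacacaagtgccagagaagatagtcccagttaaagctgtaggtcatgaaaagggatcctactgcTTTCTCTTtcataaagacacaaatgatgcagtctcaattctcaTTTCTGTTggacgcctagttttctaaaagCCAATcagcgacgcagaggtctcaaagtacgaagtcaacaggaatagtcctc
B2m: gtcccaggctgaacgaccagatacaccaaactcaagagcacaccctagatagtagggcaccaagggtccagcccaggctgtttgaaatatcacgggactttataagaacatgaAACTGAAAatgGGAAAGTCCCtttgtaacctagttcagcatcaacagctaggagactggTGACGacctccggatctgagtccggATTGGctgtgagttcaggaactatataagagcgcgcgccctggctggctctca
Tap1: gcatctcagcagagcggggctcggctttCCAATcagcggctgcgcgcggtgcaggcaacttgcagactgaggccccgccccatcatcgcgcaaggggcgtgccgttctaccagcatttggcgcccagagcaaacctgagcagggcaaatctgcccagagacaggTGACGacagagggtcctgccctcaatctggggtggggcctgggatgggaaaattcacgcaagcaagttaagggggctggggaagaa
H2-K1 and H2-D1 share a run of 47 bases, and in both the kappaB consensus matches on both strands in overlapping positions just before a match to AANNGAAA. In B2m the order is turned, with AANNGAAA at positions -137 to -130 and the kappaB consensus at -126 to -117 from the start site. H2-T23 holds AANNGAAA at -124 to -117 and at -81 to -74 but no match to the kappaB consensus or TGACG in this window. AANNGAAA was found in 4 of the 9 genes with a window (the heavy chains and B2m) and in 21.3% of all 32851 mouse windows of the same length. The kappaB consensus was found in 3 of the 9 (H2-K1, H2-D1 and B2m) and in 3.90% of all windows. TGACG was found in 5 of the 9 against 17.8%, and CCAAT in 7 of the 9 against 33.8%. The Tap1 and Psmb9 windows cover 225 of the same bases on opposite strands, so their matches are shared. These matches describe letters and not binding.

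**Figure D2:**
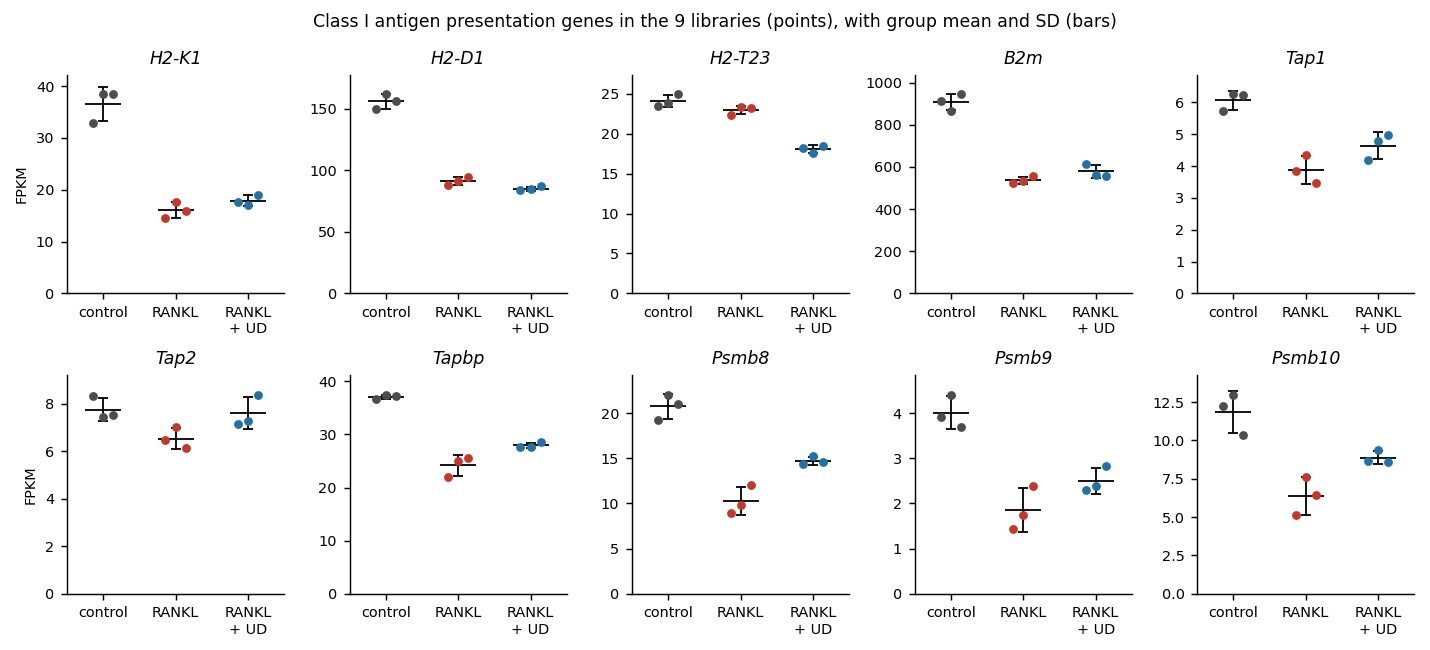
FPKM (y axis, from 0) of the 10 genes (panels) in each library (points) by group (x axis), with the group mean and SD (bars, n = 3). B2m and H2-D1 fall with RANKL and stay low with UD, H2-T23 is clearly lower in RANKL + UD while its RANKL libraries lie just below control, and Psmb8 in RANKL + UD lies between the other groups without overlap.

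H2-K1 (ENSMUSG00000061232), a classical heavy chain that presents peptides to CD8+ T cells, measured 32.8, 38.4 and 38.4 FPKM in control, 14.5, 17.7 and 15.97 in RANKL and 17.6, 17.0 and 19.1 in RANKL + UD. Every control library lay above every other library, and the RANKL and RANKL + UD libraries overlapped. It was 2.14-fold lower with RANKL (log2 fold change -1.10, SE 0.0755, adjusted p = 5.52e-11), which was the largest fall among the 10 genes. With UD added its log2 fold change against RANKL was 0.07 (SE 0.0779, adjusted p = 0.513). H2-D1 (ENSMUSG00000073411), the other classical heavy chain, measured 149.9, 161.6 and 156.6 FPKM in control, 88.1, 91.2 and 94.7 in RANKL and 83.7, 84.5 and 87.0 in RANKL + UD. Each group lay fully below the one before it. The step with RANKL was -0.69 on the log2 scale (SE 0.0468, adjusted p = 5.18e-11) and the step with UD was -0.19 (SE 0.0472, adjusted p = 0.0031). The second step was not called when libraries were scaled by total counts alone (log2 fold change -0.10, adjusted p = 0.0923).

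H2-T23 (ENSMUSG00000067212) encodes Qa-1, a non-classical heavy chain that presents leader peptides of other class I chains to receptors of natural killer cells. It measured 23.5, 23.8 and 24.9 FPKM in control, 22.4, 23.3 and 23.2 in RANKL and 18.2, 17.6 and 18.5 in RANKL + UD. Every RANKL library lay just below every control library in FPKM, but these groups overlapped after TMM scaling, with a log2 fold change of 0.02 (SE 0.0579, adjusted p = 0.778) whose sign turned under total counts (-0.07), and every RANKL + UD library lay below both. The log2 fold change of RANKL + UD was -0.43 against RANKL (SE 0.0589, adjusted p = 6.27e-06) and -0.41 against control (SE 0.0591, adjusted p = 4.76e-06), and both calls held in every alternative run. H2-T23 is the gene of the 10 that was called in both comparisons of RANKL + UD but not in RANKL against control.

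B2m (ENSMUSG00000060802), the light chain that pairs with all of these heavy chains, was the most abundant of the 10 genes. It measured 914, 868 and 944 FPKM in control, 523, 532 and 555 in RANKL and 615, 564 and 559 in RANKL + UD. Control lay above both other groups, and RANKL + UD lay just above RANKL in FPKM but overlapped it after TMM scaling. It was 1.59-fold lower with RANKL (log2 fold change -0.67, SE 0.0511, adjusted p = 3.07e-10) and was not called with UD added to RANKL (0.02, SE 0.0511, adjusted p = 0.756). The class I heavy chain genes resemble each other in sequence, to differing degrees. RAW264.7 comes from BALB/c mice, while the reference genome comes from another strain with other class I alleles. The division of reads among heavy chains is therefore uncertain, and B2m is free of that limit.

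Tap1 (ENSMUSG00000037321) and Tap2 (ENSMUSG00000024339) form the transporter that moves peptides into the ER. Tap1 measured 5.72, 6.25 and 6.23 FPKM in control, 3.84, 4.35 and 3.47 in RANKL and 4.18, 4.78 and 4.97 in RANKL + UD. Control stood above the other libraries, while RANKL and RANKL + UD overlapped. Tap1 was 1.47-fold lower with RANKL (log2 fold change -0.56, SE 0.0955, adjusted p = 3.99e-05), and with UD added the log2 fold change was 0.17 (SE 0.0971, adjusted p = 0.185), which passed the test under total counts (0.26, adjusted p = 0.0422). Tap2 measured 8.32, 7.45 and 7.53 FPKM in control, 6.47, 7.01 and 6.14 in RANKL and 7.14, 7.30 and 8.39 in RANKL + UD. The RANKL libraries were the lowest in FPKM, but after TMM scaling they overlapped with both other groups. Its log2 fold changes were -0.16 with RANKL (SE 0.0911, adjusted p = 0.14), 0.13 with UD added to RANKL (adjusted p = 0.273) and -0.03 in RANKL + UD against control (adjusted p = 0.818). Under total counts Tap2 passed the test in RANKL against control (log2 fold change -0.25, adjusted p = 0.024). The difference between the changes of Tap1 and Tap2 was not tested.

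Tapbp (ENSMUSG00000024308) encodes tapasin, which bridges TAP and the heavy chain during peptide loading. It measured 36.6, 37.5 and 37.2 FPKM in control, 21.97, 24.99 and 25.6 in RANKL and 27.7, 27.6 and 28.6 in RANKL + UD. The 3 groups did not overlap on either scale. Tapbp was 1.44-fold lower with RANKL (log2 fold change -0.53, SE 0.0564, adjusted p = 5.95e-08). With UD added its log2 fold change of 0.12 (SE 0.0569) had an adjusted p of 0.0955, which became 0.00576 under total counts (log2 fold change 0.21) and 0.0313 without RANKL replicate 3. RANKL + UD remained below control (-0.41, adjusted p = 2.71e-06).

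Psmb8 (ENSMUSG00000024338), the chymotrypsin-like subunit of the immunoproteasome, measured 19.2, 22.03 and 21.0 FPKM in control, 8.95, 9.84 and 12.0 in RANKL and 14.3, 15.2 and 14.6 in RANKL + UD. The 3 groups were separate, with RANKL + UD between the other groups. Psmb8 was 1.90-fold lower with RANKL (log2 fold change -0.93, SE 0.0863, adjusted p = 7.68e-09) and 1.35-fold higher with UD added (0.43, SE 0.0876, adjusted p = 0.000516), and both calls held in every alternative run. It was still lower in RANKL + UD than in control (-0.50, adjusted p = 3.98e-05). Psmb10 (ENSMUSG00000031897), the trypsin-like subunit, measured 12.3, 12.98 and 10.3 FPKM in control, 5.12, 7.59 and 6.42 in RANKL and 8.68, 9.35 and 8.56 in RANKL + UD. Its groups were also separate, with wider spread in control and RANKL. Psmb10 was 1.75-fold lower with RANKL (log2 fold change -0.81, SE 0.129, adjusted p = 1.6e-05) and 1.31-fold higher with UD added (0.39, SE 0.132, adjusted p = 0.0238). The second call was lost without RANKL replicate 1 (log2 fold change 0.25, adjusted p = 0.145), without RANKL replicate 3 (0.39, adjusted p = 0.0522) and without RANKL + UD replicate 2 (0.35, adjusted p = 0.0818).

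Psmb9 (ENSMUSG00000096727), the third immunoproteasome subunit, was the least abundant of the 10 genes. It measured 3.91, 4.41 and 3.70 FPKM in control, 1.44, 1.74 and 2.39 in RANKL and 2.29, 2.38 and 2.83 in RANKL + UD. Control lay above all other libraries, and RANKL replicate 3 reached into the range of RANKL + UD. Psmb9 was 2.03-fold lower with RANKL (log2 fold change -1.02, SE 0.159, adjusted p = 1.16e-05). With UD added its log2 fold change of 0.34 (SE 0.165) had an adjusted p of 0.11, which was 0.0114 without RANKL replicate 3 (log2 fold change 0.57) and 0.0424 under total counts.

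Each immunoproteasome subunit takes the place of a constitutive subunit, Psmb8 of Psmb5, Psmb9 of Psmb6 and Psmb10 of Psmb7. The constitutive subunits rose with RANKL, by 0.33 for Psmb5, 0.52 for Psmb6 and 0.53 for Psmb7 on the log2 scale (adjusted p = 0.0041, 9.07e-08 and 9.99e-07). With UD added, Psmb6 fell by 0.44 (adjusted p = 3.02e-06), while Psmb5 and Psmb7 had log2 fold changes of 0.11 and 0.03 and were not called. A ratio within a library does not depend on how libraries are scaled. The summed FPKM of Psmb8, Psmb9 and Psmb10 over that of Psmb5, Psmb6 and Psmb7 was 0.349, 0.384 and 0.348 in control, 0.126, 0.140 and 0.148 in RANKL and 0.200, 0.218 and 0.204 in RANKL + UD. The groups did not overlap, and the log2 differences were -1.39 with RANKL, 0.59 with UD added to RANKL and -0.80 in RANKL + UD against control. An exact permutation test of 3 against 3 libraries gave two-sided p = 0.1 for each, the smallest that the design allows, so no single value can pass 0.05. The adjusted value over the family of 33 such tests of ratios and sums was 0.114.

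By pair, the Psmb8 to Psmb5 ratio was 1.03 ± 0.0262 (SD, n = 3) in control, 0.430 ± 0.0494 in RANKL and 0.539 ± 0.0113 in RANKL + UD. The Psmb9 to Psmb6 ratio was 0.0783 ± 0.00808, 0.0267 ± 0.00575 and 0.0462 ± 0.00477, and Psmb6 in its denominator was itself lower with UD. The Psmb10 to Psmb7 ratio was 0.393 ± 0.0250, 0.156 ± 0.0300 and 0.201 ± 0.0224, and its RANKL and RANKL + UD libraries overlapped (exact permutation test, two-sided p = 0.3).

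**Figure D3:**
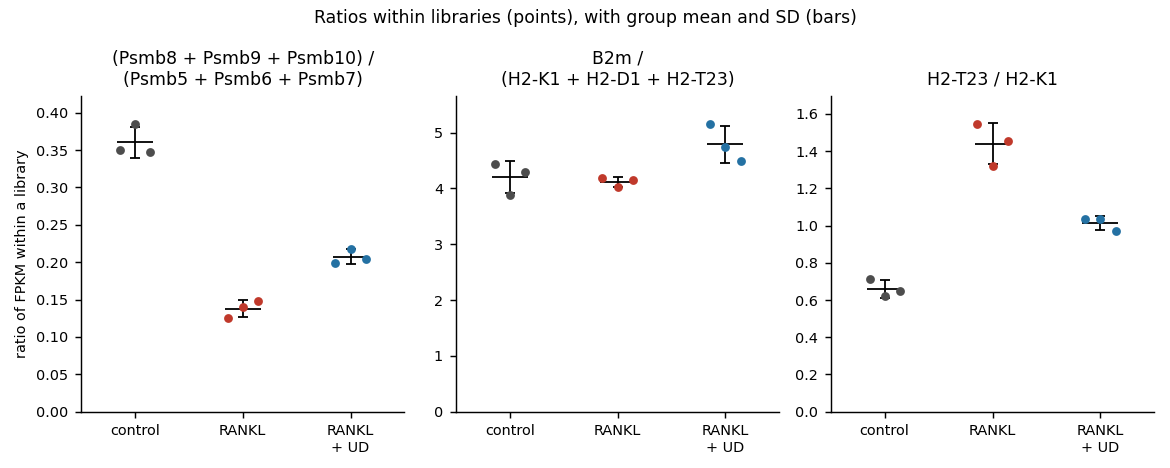
Ratios of FPKM within each library (y axis, from 0; points) by group (x axis), with mean and SD (bars, n = 3). The immunoproteasome to constitutive ratio falls from about 0.361 to 0.138 with RANKL and is 0.207 with UD, B2m over the 3 heavy chains is highest in RANKL + UD, and H2-T23 over H2-K1 is highest in RANKL.

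B2m over the sum of the 3 heavy chains measured 4.43, 3.88 and 4.29 in control, 4.18, 4.02 and 4.15 in RANKL and 5.15, 4.74 and 4.49 in RANKL + UD. Control and RANKL overlapped (log2 difference -0.03, exact permutation test, two-sided p = 0.8), and RANKL + UD was higher than both in every library, by 0.22 against RANKL and 0.19 against control on the log2 scale (exact permutation test, two-sided p = 0.1 each). The FPKM ratios among the heavy chains also differed between groups. These ratios rest on the division of reads among heavy chains, which is uncertain as described for B2m. H2-T23 over H2-K1 was 0.662 ± 0.0486 in control, 1.44 ± 0.112 in RANKL and 1.01 ± 0.0368 in RANKL + UD, and the 3 groups did not overlap. H2-D1 over H2-K1 was 4.28 ± 0.250, 5.72 ± 0.487 and 4.76 ± 0.212, with RANKL above both other groups.

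The 10 genes summed to 1213 ± 34.5 FPKM in control, 720 ± 24.9 in RANKL and 766 ± 27.8 in RANKL + UD, most of it B2m. The RANKL sum lay below control in every library (log2 difference -0.75, exact permutation test, two-sided p = 0.1). The sum in RANKL + UD lay 0.09 above RANKL on the log2 scale, which became 0.00 once FPKM were divided by the TMM factors. In FPKM, B2m and H2-D1 held the first and the second place in all groups, followed by Tapbp, and Tap1 and Psmb9 held the last places. H2-K1 stood above H2-T23 in control, with no overlap, and below it in RANKL, with no overlap, while in RANKL + UD these neighbours overlapped. Tapbp overlapped its lower neighbour in control (H2-K1) and in RANKL (H2-T23). Tap2 and Psmb10 overlapped in RANKL, and Psmb10 stood above Tap2 in the other groups.

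Further class I heavy chains of the Q, T and M regions were read from a list of 17, of which 14 are in the table and 7 were tested. All 7 were lower with RANKL, with a median log2 fold change of -1.55. Over all tested genes, 27.3% were called higher and 30.2% lower with RANKL, and 18.6% higher and 20.2% lower with UD added. These shares stand beside the counts of this list and of every list below. H2-T10 had the largest fall (-1.70, adjusted p = 5.14e-06), and H2-T22 (-1.65), H2-Q5 (-1.65), H2-Q6 (-1.55) and H2-Q4 (-1.43) were close to it, while H2-T24 (-0.81) and H2-M3 (-0.33) fell less. H2-T10 reached 1 FPKM in control only, so its fall is partly set by the filter. H2-Q6, whose value is the list median, was low (1.55 ± 0.838 FPKM in control, 0.493 ± 0.239 in RANKL). Its control and RANKL libraries overlapped after TMM scaling. H2-T22, which is recognised by gamma-delta T cells, measured 8.59 ± 0.560 FPKM (SD, n = 3) in control, 2.58 ± 0.0764 in RANKL and 3.44 ± 0.225 in RANKL + UD. It was the only one of the 7 called with UD added (0.33, adjusted p = 0.0224). The median of the list in that comparison was 0.29. The uncertain division of reads among similar heavy chains applies to these genes too.

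Class I-like genes were read from a list of 12, of which 8 were tested. With RANKL 5 were lower and 0 higher, and with UD added 2 were higher and 2 lower, which is near the shares over all tested genes. Hfe, which controls iron uptake through the transferrin receptor, had the largest fall with RANKL, from 7.00 ± 0.210 to 1.13 ± 0.121 FPKM (log2 fold change -2.54, adjusted p = 4.72e-13), and the largest rise with UD, to 2.42 ± 0.300 FPKM (1.01, adjusted p = 8.73e-06). Ulbp1, a ligand of the NKG2D receptor of natural killer cells, measured 18.8 ± 1.12, 10.6 ± 0.540 and 21.96 ± 0.226 FPKM in the 3 groups, so that RANKL + UD was above control as well (0.22, adjusted p = 0.00176). H60b, another NKG2D ligand, had a log2 fold change of -0.31 with RANKL (adjusted p = 0.155) and fell by 0.90 with UD added (adjusted p = 0.00119).

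Genes of peptide loading and trimming in the ER, 9 tested of 10 listed, were mixed. With RANKL 4 were higher and 3 lower. Erap1, the aminopeptidase that trims peptides to the length class I molecules hold, went from 20.9 ± 0.350 to 10.9 ± 0.843 FPKM with RANKL (log2 fold change -0.85, adjusted p = 5.22e-11) and to 14.2 ± 0.625 FPKM with UD added (0.29, adjusted p = 0.000514). It was the only one of the 9 called higher with UD, whereas 4 were under total counts. Hspa5, the general ER chaperone BiP, rose with RANKL (0.77, adjusted p = 1.62e-12) and fell with UD (-0.24, adjusted p = 0.000128).

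In the constitutive proteasome core, 7 of 14 subunits were higher and 1 lower with RANKL, with a median log2 fold change of 0.14 that was 0.05 under total counts. Psmb7 had the largest rise, and Psma7 fell (-0.34, adjusted p = 8.17e-06); under total counts 6 were higher and 3 lower. With UD added 2 were higher, 1 was lower and 11 were not called, while under total counts 6 were higher; Psma1 rose most (0.25, adjusted p = 0.000432). Among 9 activator and assembly genes, the interferon-inducible activator subunit Psme1 fell with RANKL (-0.51, adjusted p = 1.63e-06) and rose with UD (0.24, adjusted p = 0.00956), with 39.5 ± 0.336, 26.1 ± 2.30 and 32.7 ± 2.45 FPKM in the 3 groups. Psme4 had the largest called rise with RANKL (0.20, adjusted p = 0.00259), which was not called under total counts (adjusted p = 0.0753). Pomp, which assembles the core, had the largest called rise with UD (0.25, adjusted p = 0.00587).

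**Figure D4:**
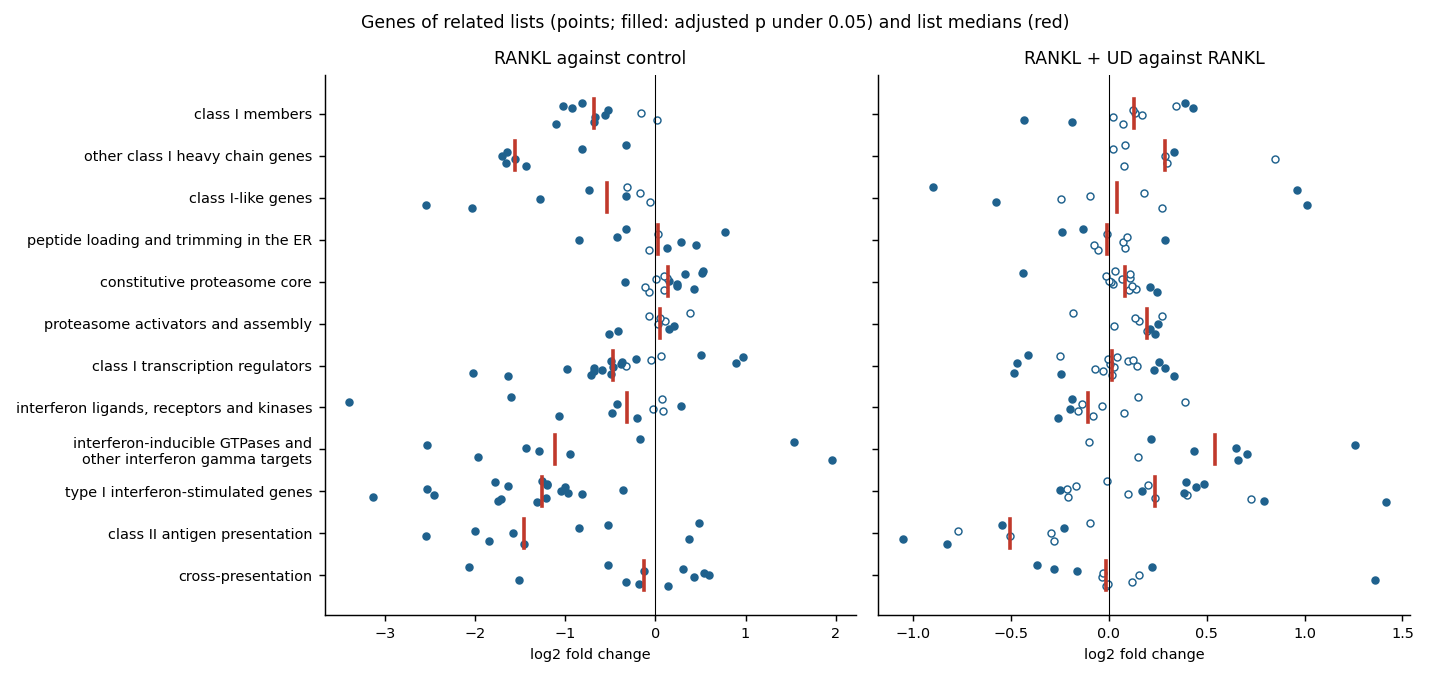
Log2 fold change (x axis) of each tested gene (points, filled where called) in the class I genes and the related lists (y axis), with list medians in red, for RANKL against control and for RANKL + UD against RANKL. The type I interferon-stimulated genes all lie left of 0 with RANKL, and most interferon-inducible GTPases and other interferon gamma targets lie right of 0 with UD.

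Transcription regulators of class I genes were read from a list of 19, all tested. With RANKL 13 were lower and 3 higher, with a median log2 fold change of -0.47. Nlrc5, the activator that binds class I promoters through other factors, measured 4.60, 5.35 and 4.97 FPKM in control, 1.23, 1.83 and 1.45 in RANKL and 2.01, 1.91 and 2.11 in RANKL + UD. Its groups did not overlap in FPKM, but after TMM scaling RANKL and RANKL + UD overlapped. Nlrc5 was lower with RANKL (-1.64, adjusted p = 6.82e-11) and slightly higher with UD added (0.34, adjusted p = 0.0318), and remained lower than control (-1.30). Irf8, a macrophage regulator of interferon genes, had the largest fall with RANKL (-2.03, adjusted p = 2.62e-14) and fell again with UD (-0.48, adjusted p = 0.000508). Irf1, which drives Tap1, Psmb9 and other class I genes after interferon, was lower with RANKL (-0.72, adjusted p = 1.55e-05) and was not called with UD added (0.01, adjusted p = 0.939). Nfkb2, a subunit of the non-canonical NF-kappaB pathway, had the largest rise with RANKL (0.97, adjusted p = 1.03e-12).

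Of 16 interferon ligands, receptors and kinases, 10 were tested, and Ifnb1, Ifng, Ifna1, Ifna2 and Ifna4 are listed at 0 in the means of all 3 groups. With RANKL 6 were lower and 1 higher. Socs3, an inhibitor of cytokine signalling, had the largest fall (-3.40, adjusted p = 1.49e-13), and Jak2 was the gene that rose (0.29, adjusted p = 0.000463). With UD added 0 rose and 3 fell, with the largest fall for Ifnar1, a chain of the type I interferon receptor (-0.26, adjusted p = 0.000399).

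All 17 type I interferon-stimulated genes on the list were lower with RANKL, with a median log2 fold change of -1.25. The largest fall was that of Mx1, an antiviral GTPase (-3.13, adjusted p = 1.08e-07), from 1.20 ± 0.178 to 0.127 ± 0.0404 FPKM. Mx1, Mx2 and Oasl2 reached 1 FPKM in control only, and Ifit3 also passed the filter only through control. These genes thus entered the test through the group where they are high, and their falls are partly set by the filter. With UD added 7 were higher and 1 lower, with a median of 0.24. Ifit1, which binds viral RNA, had the largest rise, from 0.540 ± 0.0794 to 1.53 ± 0.435 FPKM (1.42, adjusted p = 0.000359), and the fall of Oasl1 (-0.25) was not called under total counts. Of the interferon-inducible GTPases and other interferon gamma targets, 8 of 17 were tested. With RANKL 6 were lower and 2 higher, and with UD added 6 were higher and 0 lower. Cxcl10, a chemokine for T cells, measured 2.40 ± 0.347, 0.390 ± 0.0866 and 0.993 ± 0.0833 FPKM in the 3 groups and had the largest fall with RANKL (-2.53, adjusted p = 4.41e-08) and the largest rise with UD (1.26, adjusted p = 0.00155). Gbp7 had the largest rise with RANKL (1.96, adjusted p = 9.41e-10) and rose further with UD (0.66, adjusted p = 0.000386). Cxcl10 and Gbp9 passed the filter only through control, and Gbp7 only through RANKL and RANKL + UD.

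Class II antigen presentation, which displays peptides taken up from outside to CD4+ T cells, was read from a list of 13 genes, 9 of them tested. With RANKL 7 were lower and 2 higher, and the median log2 fold change was -1.46, the value of H2-Aa. H2-Ab1 and H2-DMb2 reached 1 FPKM in control only, and H2-Aa in control and RANKL replicate 3 (1.06 FPKM). These genes thus passed the filter through the group where they are high, and their falls are partly set by it. H2-Ea, a class II alpha chain, fell from 18.4 ± 0.881 to 2.97 ± 1.35 FPKM (-2.54, adjusted p = 7.39e-09), and Ifi30, a lysosomal thiol reductase, had the largest rise (0.48, adjusted p = 3.15e-07). With UD added 0 were higher and 4 lower, with a median of -0.50 beside 0.13 for the 10 class I genes. H2-Eb1, a class II beta chain, had the largest fall (-1.05, adjusted p = 5.81e-06), from 6.65 ± 0.281 to 3.39 ± 0.658 FPKM. The difference between the class I and class II lists was not tested. Of 11 cross-presentation genes, 5 were higher and 6 lower with RANKL, with the largest fall in Cybb, the catalytic subunit of the phagocyte NADPH oxidase (-2.07, adjusted p = 3.91e-19), and the largest rise in Sec61b, a subunit of the ER translocon (0.60, adjusted p = 7.19e-06). With UD added 2 were higher and 3 lower; Rab27a, a vesicle transport GTPase, rose from 1.21 ± 0.218 to 3.29 ± 0.267 FPKM (1.36, adjusted p = 2.4e-07), and Tlr4 had the largest fall (-0.37, adjusted p = 0.000684).

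The stretch of chromosome 17 from the start of H2-K1 to the end of H2-D1 (chr17:34214991-35486475 in the deposited coordinates) holds 6 of the 10 genes and 138 others, of which 55 were tested. With RANKL 7 of these 55 were higher and 22 lower, with a median log2 fold change of -0.17, against 27.3% higher and 30.2% lower among all tested genes. The largest called falls were those of H2-Ea (-2.54) and of a gene without a symbol, ENSMUSG00000120973 (-2.31), and the largest called rises those of Ltb, the membrane anchor of lymphotoxin (1.36), and Gpsm3 (0.45). With UD added 9 were higher and 10 lower, with a median of -0.04, against 18.6% higher and 20.2% lower among all tested genes. The largest called rises were those of Hspa1l and Gm10501 (1.51 and 1.06), and the largest called falls those of the class II genes H2-Eb1 and H2-Aa (-1.05 and -0.83). Psmb8 rose with UD and stood next to Tap1 and Tap2, which were not called.

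**Figure D5:**
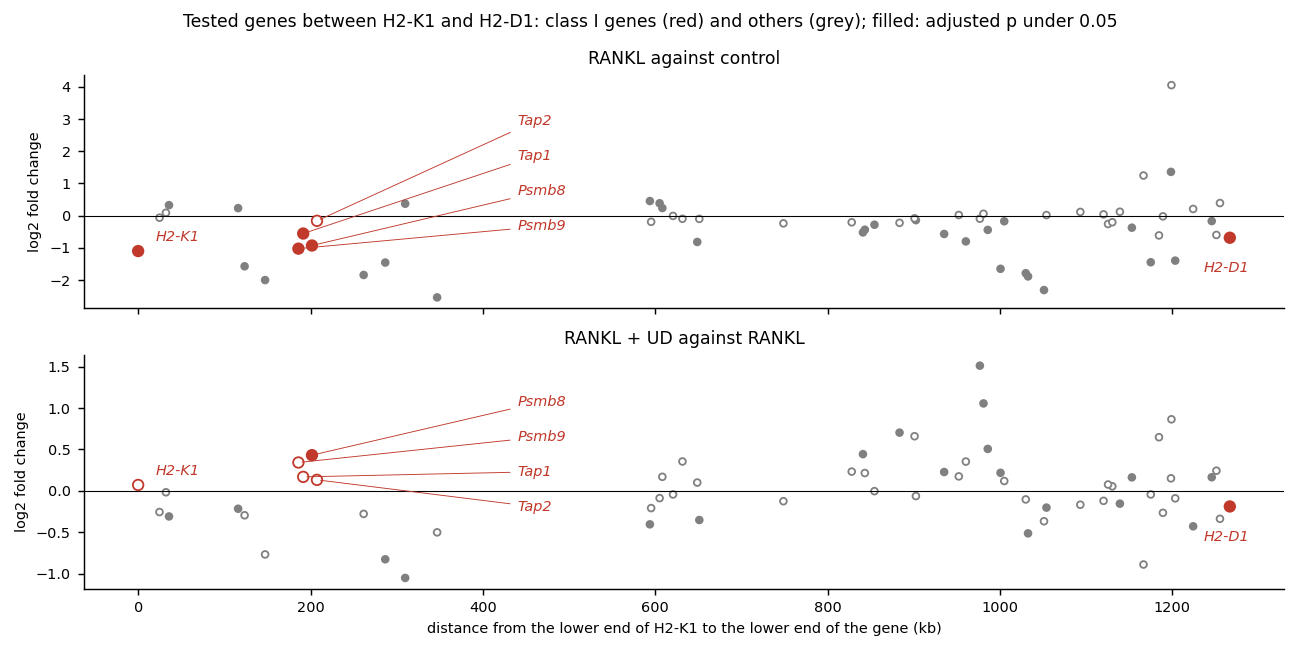
Log2 fold change (y axis) of the tested genes between H2-K1 and H2-D1 against their distance from the lower end of H2-K1 in kb (x axis), with class I genes in red, others in grey and called genes filled, for RANKL against control (upper) and RANKL + UD against RANKL (lower). With RANKL 5 of the 6 class I genes are filled below 0 among neighbours of both signs, and with UD added only Psmb8 (above 0) and H2-D1 (below 0) of the 6 are filled.

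CPM, counts scaled by library size and TMM factor, were put on a log2 scale and standardised over the 9 libraries. The genes most like a class I gene in shape had the smallest root mean square distance between these profiles. For B2m these were Scel (0.107), Zfp36l1 (0.110), Jun (0.116), Abcc3 (0.116) and Sbk1 (0.117), all closer to it than the nearest of the other 9 class I genes, H2-K1 (0.265). For Tap1 they were Agrn (0.163), Peak1os (0.180), Ripor1 (0.188), Ipo13 (0.195) and Kif13b (0.219). For Psmb9 they were Ifi35 (0.197), an interferon-induced gene, Hspb6 (0.202), Map3k8 (0.212), Pf4 (0.225) and Miip (0.234), and the nearest class I gene was Psmb8 (0.271). H2-T23 and Tap2 were far from B2m (1.06 and 1.12). The nearest other genes were picked from all tested genes and the nearest class I gene from only 9, so their distances do not stand on equal terms. Standardised profiles also leave out the size of a change, as for Abcc3 (1.96 ± 0.322 FPKM in control and 0.117 ± 0.0503 in RANKL). With 3 group means shaping each profile, such distances are a description.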

How the data were processed

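The 9 RAW264.7 libraries were placed by their labels into the groups control, RANKL and RANKL + UD, with 3 libraries per group. The table names the RANKL libraries as the model group, as the paper does. Whole-number counts per gene were deposited without normalization, and the authors deposited FPKM made from these counts, the exonic lengths and the total counts (100% of values were recomputed within 0.0051). The aligner and the counting tool are not given in the sources used here. Totals were 15951800 to 19746862 counts (median 19182637), and 3 libraries per group limit the precision. Of the authors' annotation only the gene symbols, coordinates, strands and exonic lengths were used.

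Differences were tested with edgeR 4.0.16 (R 4.3.3), using the quasi-likelihood test and TMM scaling. A single model held the 9 libraries, and p-values were adjusted by Benjamini-Hochberg over the 11995 genes that reached 1 FPKM in 3 or more libraries. An adjusted p under 0.05 was called. Some listed genes passed this filter only through the group where they are high, such as Mx1 and Socs3 through control. Their change in that direction is partly set by the filter. The SE is the log2 fold change over the root of the F statistic. Ratios and sums of FPKM were compared by two-sided exact permutation tests, and those by subunit pair or heavy chain were added after the data were seen. The code was tested on simulated data. The alternatives were no filter, filterByExpr, RLE size factors, total counts, DESeq2 1.42.0, limma 3.58.1 on log2(FPKM + 1) and on log2(FPKM + 0.1), 6 libraries only, the replicate number as a block, and each library left out. Tables and figures were made in Python 3.11.15 (pandas 2.3.3, numpy 2.4.6, scipy 1.17.1, matplotlib 3.10.9). The 10 genes and all gene lists were chosen with earlier results of these data known. Named genes are the 10, their constitutive counterparts, Nlrc5, Irf1 and Irf8 (another named regulator is not reported here), the largest called rise and fall of each list, the 2 largest called rises and falls between H2-K1 and H2-D1, and the 5 genes nearest in profile to B2m, Tap1 and Psmb9; others were named after their values were seen.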

Additional observations from a re-analysis of the deposited data

How the results depend on the processing

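With 3 libraries per group and about 19182637 reads in the median library, small differences of Psmb9, Psmb10, Tap1 and Tap2, which had the largest SEs of the 10 genes, were the least precise. Of 540 member fold changes recomputed under the alternatives, 516 kept their direction and their side of the threshold, 10 gained a call, 7 lost one and 7 changed sign without being called. The sign changes were those of H2-T23 with RANKL (-0.067 under total counts, -0.064 and -0.066 under limma with a pseudocount of 1 and 0.1), of B2m with UD added (-0.025 without RANKL + UD replicate 1, 0.050 at most on leaving out a library, without RANKL replicate 3, and 0.110 under total counts), and of Tap2 in RANKL + UD against control (0.028 without control replicate 1, 0.015 without RANKL + UD replicate 1 and 0.0036 without RANKL + UD replicate 2, and -0.103 at least, without RANKL + UD replicate 3). H2-D1 with UD added lost its call under total counts (adjusted p = 0.0923) and limma (0.0816 and 0.0804), and Psmb10 in RANKL + UD against control without control replicate 2 (adjusted p = 0.05001). Dividing FPKM by the TMM factor moved the log2 difference of the summed genes to -0.66 with RANKL and 0.0032 with UD added; the construction of that alternative shows the cause, since the RANKL factors are lower.

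Leaving out each library gave 6310 to 6882, 3947 to 5065 and 5859 to 6594 called genes in RANKL against control, RANKL + UD against RANKL and RANKL + UD against control, and 8 (in every case), 3 to 5 and 8 to 9 called members. The log2 difference of the immunoproteasome ratio ranged from -1.44 to -1.33, from 0.53 to 0.65 and from -0.84 to -0.75, that of B2m over heavy chains from -0.083 to 0.013 (its sign turned without control replicate 1), 0.16 to 0.26 and 0.13 to 0.24, and that of the summed genes from -0.78 to -0.73, 0.06 to 0.11 and -0.69 to -0.64. Under total counts the share of called genes that were higher was 36.8% instead of 47.5% with RANKL and 66.2% instead of 48% with UD added to RANKL, and of the members 5 were higher and 1 lower with UD. With UD added, total counts also changed the related lists, to 3 higher and 2 lower class I-like genes, 4 and 1 loading and trimming genes and 6 and 1 constitutive core subunits. Activator and assembly genes went from 3 and 0 to 5 and 0, and transcription regulators from 4 and 4 to 4 and 3. Further changed lists were 0 and 3 class II genes, 1 and 1 interferon ligands, receptors and kinases, 8 and 0 type I interferon-stimulated genes and 4 and 2 cross-presentation genes. With RANKL, total counts gave 3 higher and 3 lower loading and trimming genes, 1 and 7 class II genes and 4 and 6 cross-presentation genes. Interferon ligands, receptors and kinases were then 1 and 7, and activator and assembly genes went from 2 and 2 to 0 and 2. Total counts moved the median log2 fold change of all genes to -0.12 with RANKL and 0.09 with UD added. With the replicate number as a block, 7040, 4865 and 6602 genes and 8, 4 and 9 members were called. Deviations of same-numbered libraries correlated between -0.03 and 0.17, and the best match in another group had the same number in 10 of 18 cases. The design fixed beforehand held no replicate block, and these values do not exclude a link between same-numbered libraries.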
